A study of Mus musculus with 6 samples.

Results

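The 10 mouse genes H19, Meg3, Dlk1, Peg3, Peg10, Mest, Grb10, Plagl1, Ndn and Snrpn, all subject to genomic imprinting, were followed. They were taken by name, and all 10 matched a gene model among the 36528 in the files. All 10 passed the filter on low counts that left 17121 genes in the test. Polyadenylated RNA had been sequenced from primary melanocytes, the pigment cells, of mouse skin. The 6 libraries are 3 labelled BAP1 KO (knockout of the deubiquitinase BAP1), here called KO-labelled, and 3 labelled WT (wild type), here called WT-labelled. The labels name no allele, Cre driver, strain, age, sex, time or treatment for either group, and do not say whether replicates came from separate animals or cultures, so the p-values reflect library-to-library spread alone, which may be technical.

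In imprinting, 1 parental copy of a gene is kept silent by DNA methylation and chromatin marks that were set in the egg or sperm and are copied at each cell division. Imprinted genes lie in domains, where a methylated control region acts on several neighbours, and many of them regulate growth of the fetus and placenta. H19, Meg3 and, in most tissues outside the brain, Grb10 are transcribed from the maternal copy, and the other members from the paternal copy. BAP1 removes ubiquitin from histones, a mark that Polycomb complexes lay down on repressed genes. The read counts add both parental copies, so they measure how much RNA a gene gave and not from which copy it came.

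Levels below are CPM, reads scaled to library size with TMM factors. Differences are log2 fold changes, libraries labelled BAP1 KO over those labelled WT, from edgeR's quasi-likelihood test, with p-values adjusted over all tested genes by the Benjamini-Hochberg method and called under 0.05. The libraries held 33987690 to 43773769 reads. Bap1, the targeted gene (gene ID 104416), was read at 73.6, 77.3 and 72.5 CPM in KO-labelled libraries and at 55.7, 55.6 and 55.8 CPM in WT-labelled ones. It was thus higher, not lower, in KO-labelled libraries (log2 0.42, SE 0.042, edgeR adjusted p = 3.89e-06), and every direction below rests on the labels alone. Each count is a total over the whole gene model and does not show single exons.

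The cells read also differed in markers of cell type. Summed melanocyte markers made up 70313 to 71116 CPM in KO-labelled libraries and 8531 to 8685 CPM in WT-labelled ones, and 18 of 19 were higher in KO-labelled libraries. Keratinocyte markers summed to 1178 to 1229 CPM in KO-labelled libraries and 17907 to 18194 CPM in WT-labelled ones, with all 27 tested of 28 lower. Fibroblast markers summed to 193 to 208 CPM in KO-labelled libraries and 1213 to 1247 CPM in WT-labelled ones, with 15 of 17 tested lower and 2 higher, out of 21 listed. Tcf21 and Pi16 of the fibroblast list had no reads in KO-labelled libraries, and Tcf21 none in WT-labelled ones. Immune markers summed to 232 to 240 CPM (KO-labelled) and 69.3 to 76.7 CPM (WT-labelled), with 5 of 9 tested higher and 4 lower, and Cd3e and Cd207 had no reads in KO-labelled libraries, nor Cd207 in WT-labelled ones. Endothelial and muscle markers summed to 205 to 217 CPM (KO-labelled) and 633 to 677 CPM (WT-labelled), with 2 of 10 tested higher and 8 lower, and Myod1 had no reads in KO-labelled libraries. Schwann cell markers summed to 2659 to 2693 CPM (KO-labelled) and 1392 to 1445 CPM (WT-labelled), with 7 of 13 higher and 5 lower. Beside all these counts, 39.4% of all tested genes were higher and 42.1% lower in KO-labelled libraries. In bulk RNA, fewer cells of a type and less RNA per cell cannot be told apart. The part of these cell type differences in the results below was not tested.

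Promoters of members whose level differed by more than 2-fold are shown first, because they carry different densities of CpG, the dinucleotide at which imprints are written. RefSeq's promoter table (GRCm38.p6) held windows from 250 bases before to 50 after the start for 8 of the 10 members. It held none for H19 or Peg10, so these were neither shown nor searched. The windows are placed by annotated starts, and whether any lies in a methylated control region was not examined. Each window is written from 5′ to 3′ on the gene's own strand. Capitals mark the letters TGCCGC on either strand, the hexamer bound by ZFP57, the zinc finger protein that keeps imprints methylated in the mouse embryo.
Plagl1 (chr10:13090582-13090881, plus strand): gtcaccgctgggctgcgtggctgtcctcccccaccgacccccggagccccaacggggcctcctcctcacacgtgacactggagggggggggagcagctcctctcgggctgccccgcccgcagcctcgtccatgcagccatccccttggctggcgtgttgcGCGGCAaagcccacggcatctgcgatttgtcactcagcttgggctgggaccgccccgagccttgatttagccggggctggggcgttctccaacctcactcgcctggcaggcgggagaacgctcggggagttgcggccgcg
Grb10 upstream (chr11:12037371-12037670, minus strand): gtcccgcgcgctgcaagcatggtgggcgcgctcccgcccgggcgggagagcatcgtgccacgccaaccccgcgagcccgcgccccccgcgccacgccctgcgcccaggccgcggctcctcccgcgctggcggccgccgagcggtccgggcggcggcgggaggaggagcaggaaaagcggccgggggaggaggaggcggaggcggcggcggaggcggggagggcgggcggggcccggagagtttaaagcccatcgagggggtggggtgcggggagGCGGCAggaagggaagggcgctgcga
Grb10 downstream (chr11:12027922-12028221, minus strand): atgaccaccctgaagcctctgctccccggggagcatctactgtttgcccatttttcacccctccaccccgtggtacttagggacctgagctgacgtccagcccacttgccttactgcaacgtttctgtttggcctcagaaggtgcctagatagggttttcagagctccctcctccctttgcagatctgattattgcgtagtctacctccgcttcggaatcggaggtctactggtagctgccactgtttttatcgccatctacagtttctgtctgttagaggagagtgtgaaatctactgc
Dlk1 (chr12:109452573-109452872, plus strand): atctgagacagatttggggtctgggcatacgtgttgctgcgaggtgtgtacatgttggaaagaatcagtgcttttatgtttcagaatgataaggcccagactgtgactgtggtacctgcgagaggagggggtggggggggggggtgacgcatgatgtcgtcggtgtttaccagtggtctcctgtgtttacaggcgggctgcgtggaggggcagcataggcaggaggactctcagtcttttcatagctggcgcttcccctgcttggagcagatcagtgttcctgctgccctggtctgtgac
Meg3 upstream (chr12:109540746-109541045, plus strand): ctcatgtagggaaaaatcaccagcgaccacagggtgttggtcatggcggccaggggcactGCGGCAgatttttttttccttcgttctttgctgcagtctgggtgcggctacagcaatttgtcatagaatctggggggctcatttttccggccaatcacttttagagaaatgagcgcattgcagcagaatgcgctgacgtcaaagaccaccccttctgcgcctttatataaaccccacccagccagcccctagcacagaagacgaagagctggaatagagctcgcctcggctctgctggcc
Peg3 (chr7:6730370-6730669, minus strand): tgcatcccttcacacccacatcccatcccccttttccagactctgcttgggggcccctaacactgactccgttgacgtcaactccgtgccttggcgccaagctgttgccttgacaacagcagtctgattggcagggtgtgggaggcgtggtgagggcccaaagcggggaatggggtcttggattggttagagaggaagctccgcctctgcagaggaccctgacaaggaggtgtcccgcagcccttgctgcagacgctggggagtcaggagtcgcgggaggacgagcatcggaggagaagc

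The upstream Grb10 window held 45 CpG and 80.0% G and C, and 98.1% of all 32851 promoter windows held fewer CpG. The downstream Grb10 window, a separate annotated start, held 9 CpG. The Plagl1 window held 26 CpG, the Peg3 and upstream Meg3 windows 13 each and the Dlk1 window 9, where the median over all windows was 7. The ZFP57 hexamer was found once each in the windows of Plagl1, upstream Grb10 and upstream Meg3, and not in those of Dlk1, Peg3 or downstream Grb10. It occurred in 11.6% of all windows, a share not matched for CpG content. Among windows not printed, 2 of the 3 of Mest and 1 of the 4 of Snrpn held it, and the downstream window of Meg3, with 1 CpG, and that of Ndn did not. The YY1 motif (GCCATNTT) and the CTCF motif, searched on both strands, were in none of the members' windows and in 6.05% (YY1) and 0.0365% (CTCF) of all windows. A match is only a run of letters.

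Of the 10 imprinted genes, 3 were higher and 5 lower in KO-labelled libraries, and 2 did not pass the threshold. The 8 called members are 80% of the set, where 81.5% of all tested genes were called (39.4% higher, 42.1% lower). The share of members that differed was therefore near that of all genes. Called differences of more than 2-fold were found for 6 members and for 36.6% of all tested genes, and those of more than 8-fold for 3 members (Plagl1, Dlk1 and H19) and for 10.4% of all tested genes. The groups did not overlap for 9 members, all but Snrpn, and for 82.7% of all tested genes. The median log2 difference was -0.22 over the members and -0.03 over all tested genes, and the median absolute difference was 1.30 over the members and 0.68 over all tested genes. The members were chosen with earlier results of these data known, so these comparisons are a description only.

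**Figure D1:**
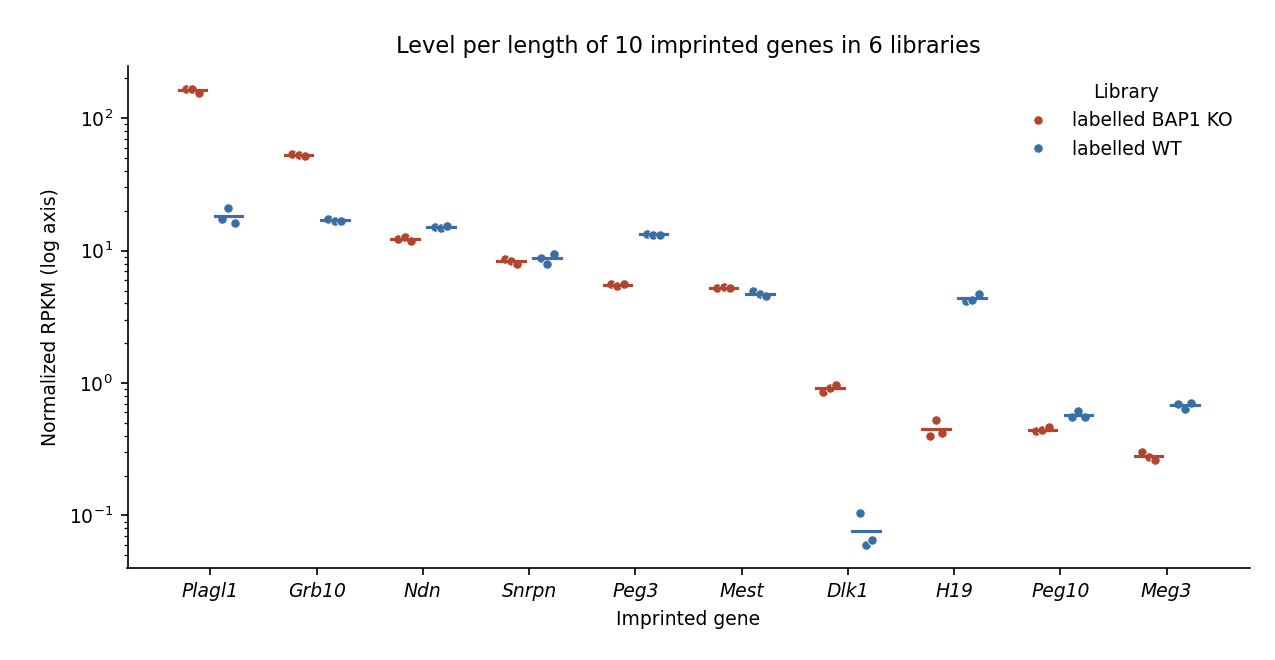
Level of each of the 10 imprinted genes in the 6 libraries, as the authors' normalized RPKM (log axis), with 1 point per library and a line at the mean of 3 libraries labelled BAP1 KO or WT. Plagl1 and Grb10 stood highest in KO-labelled libraries, at 154 to 167 and 51.4 to 54.1, and Dlk1 lowest in WT-labelled ones, at 0.0601 to 0.105.

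Plagl1 and Grb10 were the most abundant members of the set by mean level, and both were higher in KO-labelled libraries. Plagl1 encodes ZAC1, a zinc finger transcription factor that restrains proliferation and regulates other imprinted genes (gene ID 22634, chromosome 10, 13090832 to 13131694 on GRCm38). It was read at 925, 933 and 861 CPM in KO-labelled libraries and at 98.2, 121 and 91.3 CPM in WT-labelled ones. The lowest library labelled BAP1 KO lay far above the highest labelled WT, and WT replicate 2 stood somewhat above its 2 fellows. The difference was 8.74-fold (log2 3.13, SE 0.093, edgeR adjusted p = 1.30e-10), and 90.4% of tested genes differed by less.

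Grb10 encodes an adaptor that binds the activated insulin and IGF1 receptors and dampens their signal (gene ID 14783, chromosome 11, 11930499 to 12037428). Its level was 299.5, 292 and 287 CPM in KO-labelled libraries and 98.1, 96.9 and 94.7 CPM in WT-labelled ones. Every KO-labelled library lay far above every WT-labelled one, and the replicates of each label lay close together beside that gap. The difference was 3.03-fold (log2 1.60, SE 0.038, edgeR adjusted p = 1.94e-11).

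Dlk1, the third higher member, makes a membrane protein with EGF-like repeats that is best known for holding back fat cell differentiation (gene ID 13386, chromosome 12, 109452485 to 109463336). It was read at 4.37, 4.69 and 4.99 CPM in KO-labelled libraries and at 0.547, 0.319 and 0.340 CPM in WT-labelled ones. These levels rest on 162, 200 and 179 reads in KO-labelled libraries and on 19, 12 and 14 reads in WT-labelled ones, and the groups lie far apart. The difference was the largest of the set, at 11.7-fold (log2 3.55, 95% interval 3.16 to 3.94, edgeR adjusted p = 9.60e-09). Melanocyte markers were higher in the same libraries as these 3 genes (median log2 2.76), and keratinocyte and fibroblast markers were lower there. The part of these markers' differences was not tested.

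Both long noncoding RNAs were lower. H19, a growth-restraining RNA that is abundant in the embryo (gene ID 14955, chromosome 7, 142575530 to 142578146), was read at 1.11, 1.45 and 1.17 CPM in KO-labelled libraries and at 11.7, 12.2 and 13.2 CPM in WT-labelled ones. It was 9.87-fold lower (log2 -3.30, SE 0.11, edgeR adjusted p = 4.09e-10), with every library labelled BAP1 KO below every one labelled WT. Meg3, the maternally expressed RNA of the Dlk1 domain (gene ID 17263, chromosome 12, 109540996 to 109571729), stood at 4.10, 3.80 and 3.62 CPM in KO-labelled libraries and 9.67, 9.07 and 9.77 CPM in WT-labelled ones. The difference was 2.47-fold (log2 -1.31, SE 0.084, edgeR adjusted p = 8.78e-08). Meg3 is uncertain to the extent that other transcripts, Gm26906 most of all, share 10.45% of its 50-base stretches.

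H19 also holds the precursor of the microRNA miR-675 in an exon, and both arms are shown because H19 is their host transcript. Capitals mark the seed, bases 2 to 8. On the minus strand, the 5p arm lies at chr7:142577112-142577133 and the 3p arm at chr7:142577078-142577099. Mature microRNAs are not polyadenylated, and their levels were not measured in these libraries.
mmu-miR-675-5p: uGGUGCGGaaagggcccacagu
mmu-miR-675-3p: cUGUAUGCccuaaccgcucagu

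Peg3, a large zinc finger protein involved in growth and maternal behaviour in mice (gene ID 18616, chromosome 7, 6703892 to 6730462), was lower as well. It was read at 39.0, 38.2 and 39.3 CPM in KO-labelled libraries and at 95.6, 96.5 and 93.5 CPM in WT-labelled ones. The replicates of each label were tight and far apart from the other label, and the difference was 2.45-fold (log2 -1.29, SE 0.040, edgeR adjusted p = 1.98e-10). Fibroblast markers (median log2 -3.03) and keratinocyte markers (median -4.09) were lower in the same libraries as H19, Meg3 and Peg3. Melanocyte markers were higher there, and the part of these cell type differences was not tested.

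The remaining members differed little or did not pass the threshold. Peg10, a gag-like protein of retrotransposon origin that the mouse placenta needs (gene ID 170676, chromosome 6, 4747306 to 4760517), stood at 3.05, 3.12 and 3.29 CPM in KO-labelled libraries and 3.97, 4.49 and 3.95 CPM in WT-labelled ones, 1.31-fold lower (log2 -0.39, SE 0.10, edgeR adjusted p = 0.00428). Ndn encodes necdin, a MAGE family protein that promotes cell cycle exit in neurons (gene ID 17984, chromosome 7, 62348277 to 62349928). Its level was 21.5, 22.2 and 20.9 CPM in KO-labelled libraries and 26.8, 27.0 and 27.3 CPM in WT-labelled ones, 1.26-fold lower (log2 -0.33, SE 0.050, edgeR adjusted p = 1.18e-04). Neither gene's groups overlapped, though both gaps were small.

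Mest, an alpha/beta-hydrolase fold protein (gene ID 17294, chromosome 6, 30733506 to 30748466), was read at 15.4, 15.9 and 15.7 CPM in KO-labelled libraries and 14.99, 14.4 and 13.7 CPM in WT-labelled ones. The 2 groups lay just clear of each other, and the difference of 0.13 on the log2 scale (95% interval -0.01 to 0.26) missed the threshold (edgeR adjusted p = 0.0736). Of the exons of Mest, 23.1% overlap the oppositely transcribed Copg2, and these libraries do not mark strand, so reads of that stretch cannot be told apart. Snrpn encodes SmN, a core protein of the splicing machinery, and 34.1% of its exons overlap other genes, mainly Gm38393 (gene ID 20646, chromosome 7, 59982495 to 60450177). It stood at 21.6, 21.3 and 20.1 CPM in KO-labelled libraries and 22.8, 20.8 and 24.1 CPM in WT-labelled ones. Its groups overlapped, and the difference was -0.10 (95% interval -0.25 to 0.04, edgeR adjusted p = 0.171). Mest passed the threshold under 2 of 13 alternative settings, with edgeR, DESeq2 or limma adjusted p from 0.0360 to 0.436, and Snrpn under 3, with adjusted p from 0.0263 to 0.777.

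**Figure D2:**
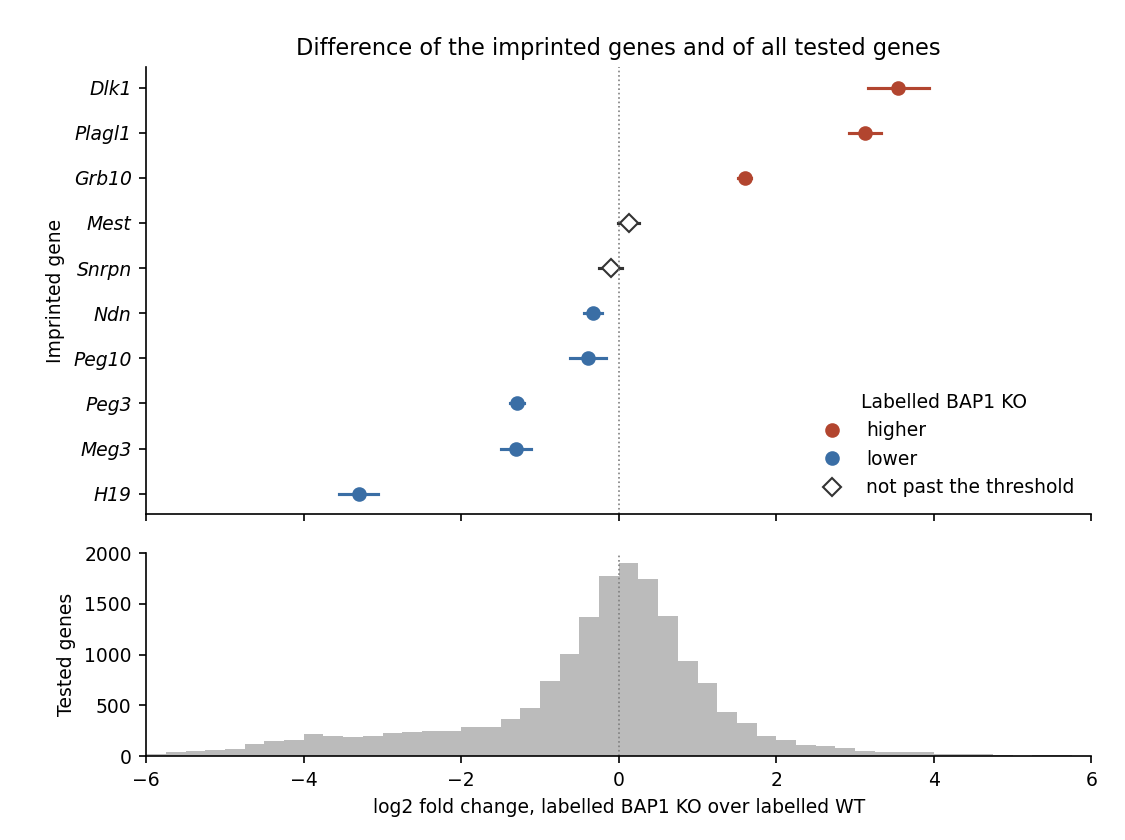
Upper panel, log2 fold change of each imprinted gene (libraries labelled BAP1 KO over labelled WT) with its 95% interval; lower panel, histogram of the same quantity over the 17121 tested genes, drawn from -6 to 6. Dlk1 (3.55) and Plagl1 (3.13) stand at the upper end and H19 (-3.30) at the lower end, and the intervals of Mest and Snrpn cross 0.

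Read per length, as the authors' normalized RPKM, Plagl1 had the highest mean of the set under both labels. It averaged 162 ± 7.35 in KO-labelled libraries and 18.2 ± 2.48 in WT-labelled ones (SD, n = 3 each). Grb10 followed with 52.6 ± 1.33 in KO-labelled libraries and 17.01 ± 0.299 in WT-labelled ones. In the WT-labelled libraries Plagl1 was read at 17.31, 20.95 and 16.22 and Grb10 at 17.35, 16.78 and 16.89, so that Plagl1 was above Grb10 in WT replicate 2 alone. Together these 2 genes made up 86.2 to 86.7% of the members' summed level per length in KO-labelled libraries and 40.5 to 44.9% in WT-labelled ones. In KO-labelled libraries, 98.8% of tested genes lay below Plagl1, and 78.7% did in WT-labelled ones.

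The order after the leading pair differed between labels. In KO-labelled libraries it ran Ndn (12.3), Snrpn (8.32), Peg3 (5.52), Mest (5.26), Dlk1 (0.915), H19 (0.448), Peg10 (0.446) and Meg3 (0.281), in mean normalized RPKM. Only H19 and Peg10 among these neighbours in the order had overlapping ranges. In WT-labelled libraries it ran Ndn (15.1), Peg3 (13.3), Snrpn (8.75), Mest (4.72), H19 (4.37), Meg3 (0.680), Peg10 (0.573) and Dlk1 (0.0770). Ranges overlapped there for Plagl1 with Grb10 and for Mest with H19. Dlk1 thus stood above H19, Peg10 and Meg3 in KO-labelled libraries and was the least abundant member in WT-labelled ones.

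Each member was then set beside its neighbours in or next to the same imprinted domain. Of 45 neighbours listed, 42 were in the files and 32 passed the count filter, with 8 higher, 18 lower and 6 not called. Peg3os and Snurf among them share their reads with the members Peg3 and Snrpn. Among all tested genes, 81.5% were called, 39.4% higher and 42.1% lower. In the H19 domain, the paternally expressed growth factor gene Igf2, whose imprint mirrors that of H19, was lower too. It stood at 3.26, 3.89 and 2.93 CPM in KO-labelled libraries and at 16.0, 15.4 and 17.3 CPM in WT-labelled ones (log2 -2.26, SE 0.10, edgeR adjusted p = 4.14e-09). Igf2 is uncertain, since 64.55% of its annotated exon bases overlap other transcripts, mainly Gm49394 on the same strand. Farther along chromosome 7, the placental growth restrainer Phlda2 (-3.06) and the cell cycle inhibitor Cdkn1c (-0.64, with 30.65% of its exons overlapping Gm44732) were lower, and the noncoding RNA Kcnq1ot1, which silences genes of that domain, was higher (0.45). Nearby, the mitochondrial ribosomal protein gene Mrpl23 was higher (0.97, with 11.8% of its 50-base stretches shared, mainly with Mrpl23-ps1) and Lsp1 lower (-1.81).

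In the domain on chromosome 12 the paternally expressed Dlk1 and the maternally expressed RNAs went in opposite directions. Beside Meg3, its downstream partner Rian was lower at 1.48, 1.36 and 2.29 CPM in KO-labelled libraries against 3.14, 2.79 and 2.96 CPM in WT-labelled ones (log2 -0.80, SE 0.18, edgeR adjusted p = 0.00170). Dio3, a thyroid hormone deiodinase that is expressed from the paternal copy like Dlk1, was lower (-2.30) at a level of 0.229 CPM in KO-labelled libraries and 1.12 CPM in WT-labelled ones. Rtl1, the other paternal gene, had 3 reads under each label and was not tested. The flanking Wdr25 and Ppp2r5c were higher by 0.24 and 0.19, and Begain (0.69) did not pass the threshold.

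Around Plagl1, the neighbours Phactr2 (0.24), Ltv1 (-0.13) and Sf3b5 (-0.24) passed the threshold with differences far smaller than its own 3.13. Cobl, an actin nucleator next to Grb10 that is reported as imprinted, was lower by contrast. It stood at 2.75, 2.72 and 2.15 CPM in KO-labelled libraries and at 49.7, 51.9 and 50.6 CPM in WT-labelled ones (log2 -4.31, SE 0.079, edgeR adjusted p = 3.21e-12). On the other side of Grb10, the lymphoid transcription factor gene Ikzf1 was higher (1.64), at 1.05 CPM in KO-labelled libraries and 0.338 CPM in WT-labelled ones, and Ddc was not tested.

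In the Peg3 domain all 3 tested genes were lower. Peg3os, an RNA that lies inside the Peg3 gene, differed by -1.20 against -1.29 for Peg3, and without strand its reads and those of Peg3 cannot be told apart. The maternally expressed zinc finger gene Zim1 (-3.82) had 6 reads in KO-labelled libraries and 88 in WT-labelled ones. Near Peg10, its head-to-head partner Sgce, a sarcoglycan, was higher by 0.27 whereas Peg10 was lower by 0.39, although both are paternally expressed. Its further neighbours Ppp1r9a (-1.82), Pon3 (-1.60), Casd1 (-0.87), Pon2 (-0.54, with 11.2% of its 50-base stretches shared) and the protease inhibitor gene Tfpi2 (-5.91, 4 reads in KO-labelled libraries against 259) were lower. Next to Mest, Copg2 (0.10, with 17.8% of its exons overlapping Mest) did not pass the threshold and Cep41 was lower (-0.44).

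In the Prader-Willi domain on chromosome 7, no tested gene differed by more than 0.80 in size. Snurf shares its transcript with Snrpn, and the files give it 2433 reads in KO-labelled libraries and 2567 in WT-labelled ones, against 2432 and 2567 for Snrpn. The 2 gene models therefore count the same reads and are 1 measurement. Mkrn3 was lower (-0.34), as Ndn was, and Peg12 (-0.41), the noncoding host Snhg14 (-0.45) and Ube3a (0.24, with 27.3% of its exons overlapping other genes), the ubiquitin ligase that neurons express from the maternal copy, did not pass the threshold. Atp10a, at the end of the domain, was higher (0.80).

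**Figure D3:**
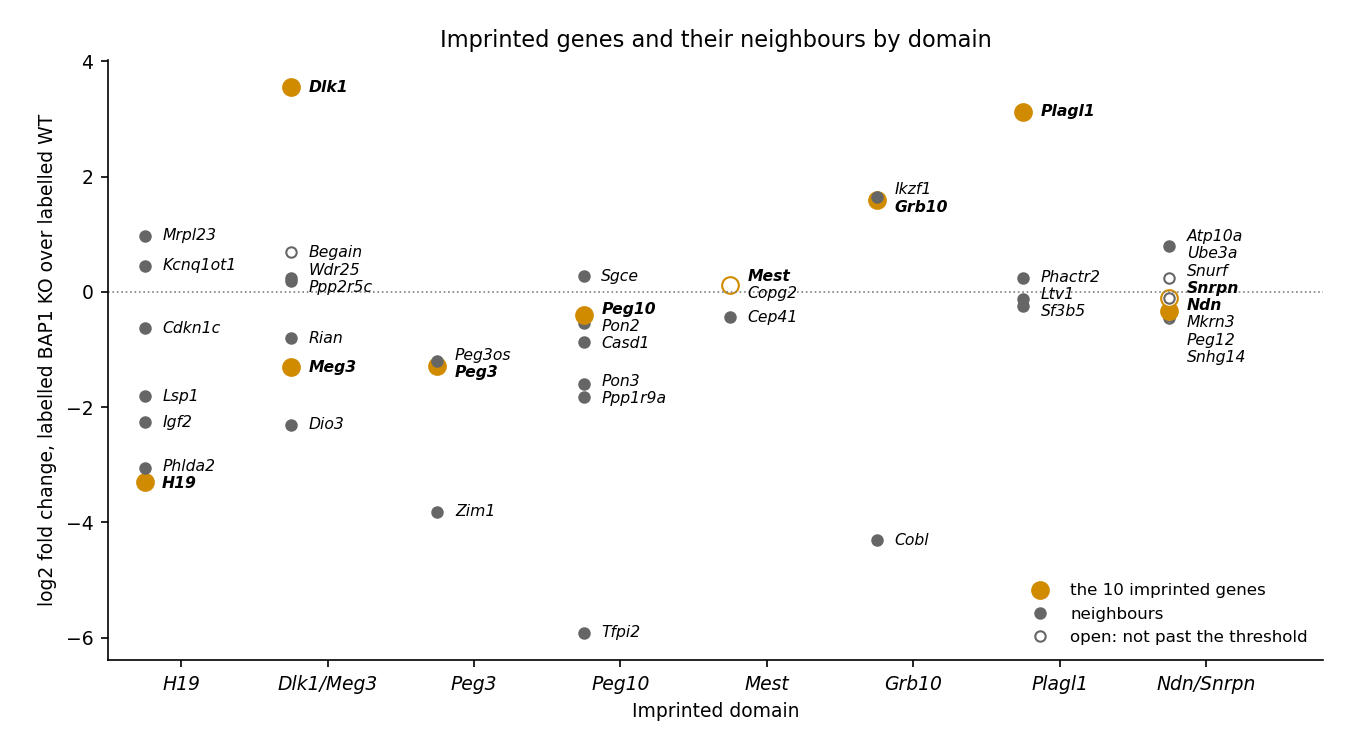
Log2 fold change (libraries labelled BAP1 KO over labelled WT) of the imprinted genes (large points) and of their tested neighbours (small points), 1 column per imprinted domain; open points did not pass the threshold. The Peg3 column lies wholly below 0, and each of the other columns has genes on both sides of it.

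Other imprinted genes were counted by the parental copy they are reported to use, for some of them in certain tissues only. Which copy they used in these cells was not measured. Many of these genes are also among the domain neighbours counted above, so the counts of neighbours and of the 2 lists are not independent. Of 29 further paternally expressed genes listed, 26 were in the files and 21 were tested, with 8 higher, 9 lower and 4 not called (median log2 -0.34). Among all tested genes, 39.4% were higher and 42.1% lower. Peg3os, among the lower genes, and Snurf, among those not called, are not independent of the members, since their reads cannot be told from those of Peg3 and Snrpn. Slc38a4, an amino acid transporter, was lower (-4.04) at 0.101 CPM in KO-labelled libraries against 1.76 CPM in WT-labelled ones. Nap1l5, a gene inside an intron of Herc3, went the other way. It was read at 19.9, 20.2 and 19.4 CPM in KO-labelled libraries and at 0.978, 1.44 and 1.55 CPM in WT-labelled ones (log2 3.89, SE 0.11, edgeR adjusted p = 1.27e-10). Zdbf2 (-2.34) was lower, as was Dio3, and the noncoding RNA Peg13 was higher (1.73), at 163 CPM in KO-labelled libraries and 49.3 CPM in WT-labelled ones.

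Of 31 further maternally expressed genes, 23 were tested, with 2 higher, 17 lower and 4 not called (median log2 -0.80, beside -0.03 over all tested genes). Among all tested genes, 39.4% were higher and 42.1% lower. Melanocyte markers were higher, and keratinocyte and fibroblast markers lower, in the same libraries. The part of these cell type differences in the count was not tested. Tfpi2, Cobl and Zim1, given above with their domains, had the largest differences together with the potassium channel gene Kcnq1 (-3.72). Kcnq1 stood at 0.899 CPM in KO-labelled libraries and 11.9 CPM in WT-labelled ones. Gnas is on the maternal list although most of its transcripts come from both copies, and it did not pass the threshold (0.04, with 22.0% of its exons overlapping other genes). The 2 higher genes were Atp10a (0.80) and Commd1 (0.73, with 11.9% of its exons overlapping other genes). The list count of higher genes was 4 with the authors' library factors and without WT replicate 2 or WT replicate 3, and 5 with no count filter and without WT replicate 1. Whether the 2 lists differed from each other was not tested.

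Of 30 genes that set, keep or erase imprints, 25 were tested, and 18 were higher, 3 lower and 4 not called (median log2 0.45), where 39.4% of all tested genes were higher and 42.1% lower. Melanocyte markers were higher, and keratinocyte and fibroblast markers lower, in the same libraries. The lower genes were Setdb1 (-0.37, with 10.2% of its 50-base stretches shared), Yy1 (-0.15) and Zfp57. Zfp57 was read at 0.997, 0.704 and 1.23 CPM in KO-labelled libraries and at 9.41, 9.20 and 8.61 CPM in WT-labelled ones (log2 -3.23, SE 0.14, edgeR adjusted p = 4.07e-09). Tet1 (1.03) and Tet2 (0.92), enzymes that oxidize methylcytosine, were among the higher genes.

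**Figure D4:**
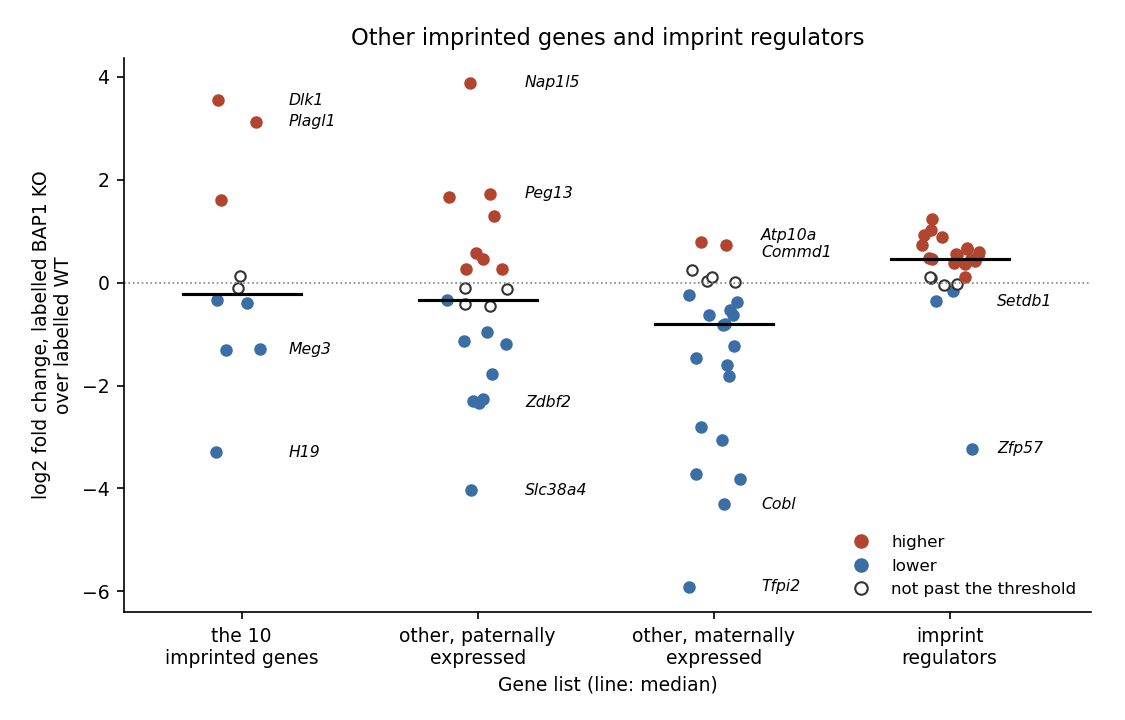
Log2 fold change (libraries labelled BAP1 KO over labelled WT) of every tested gene in 4 lists, with a line at each list's median. Named are the 2 lowest genes of each list and, except among imprint regulators, the 2 highest. The medians are -0.22 for the 10 imprinted genes, -0.34 for other paternally expressed genes, -0.80 for other maternally expressed genes and 0.45 for imprint regulators.

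Relatives and partners of the members were also counted. Of 16 genes related to members by family, 15 were tested, with 5 higher and 9 lower (median log2 -0.60). For this and the Sm count below, 39.4% of all tested genes were higher and 42.1% lower. Grb7, the sister adaptor of Grb10, was lower at 1.62 ± 0.289 CPM in KO-labelled libraries and 32.3 ± 0.860 CPM in WT-labelled ones (SD, n = 3 each; log2 -4.31, edgeR adjusted p = 1.40e-11), opposite to Grb10. Among MAGE relatives of Ndn, Maged2 was lower (-1.78) and Magee1 higher (1.46), and Rtl8c, a gag-derived gene like Peg10, was higher (1.56). Rtl8a and Rtl8b, also counted as higher, are not cleanly separate measurements. Of the 50-base stretches of Rtl8a, 84.99% are shared, mainly with Rtl8b. Of the 7 genes of the core Sm proteins, the family to which SmN belongs, 1 was higher, 4 lower and 2 not past the threshold. Snrpb, the close relative that SmN replaces in the brain, was the higher one (0.21), at 128 CPM in KO-labelled libraries and 111 CPM in WT-labelled ones. Snrpf, counted as lower, is uncertain, since 85.37% of its exon bases overlap other genes, mainly Ccdc38.

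A list of 14 genes covered the insulin and IGF pathway, on which Grb10, H19 and Igf2 act, and RNA-binding proteins of Igf2 mRNA. Of these, 12 were lower and 2 higher (median log2 -2.06), where 42.1% of all tested genes were lower and 39.4% higher. Igfbp3 (-4.22), Igfbp7 (-3.06) and Igfbp5 (-2.89), secreted proteins of the IGF-binding family, and Igf2bp3 (-3.10, with 18.7% of its exons overlapping Malsu1), an RNA-binding protein of Igf2 mRNA, differed most. Igfbp3 stood at 51.9 CPM in KO-labelled libraries and 968 CPM in WT-labelled ones. In the same libraries keratinocyte and fibroblast markers were lower and melanocyte markers higher, and their part in this count was not tested.

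Patterns across the 6 libraries were compared by the root mean square difference of log2(CPM + 0.5) after centring each gene on its own mean, among 12342 named genes of at least 2 CPM in the higher group. Closest to Plagl1, the called higher member with the highest mean normalized RPKM, were Syt4 (0.061), Cdh13 (0.068) and Mrgprf (0.086). Syt4, a synaptotagmin of secretory vesicles, was read at 2201 ± 41.5 CPM in KO-labelled libraries and 238 ± 29.9 CPM in WT-labelled ones. Closest to Ndn, the called lower member with the highest mean normalized RPKM, were Bace1 (0.011), Bms1 (0.014) and Eipr1 (0.015). Mrgprf had a fitted difference of 5.56 against 3.13 for Plagl1, and its level of 0.09 CPM in WT-labelled libraries lies below the added 0.5. The points share 6 libraries in 2 groups, and the likeness is a description only.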

How the data were processed

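The files hold polyA RNA-seq of 6 libraries. Per the file headers, the authors deposited a count of uniquely aligned reads and a size-factor-adjusted RPKM, called normalized RPKM here, for each gene model. GSNAP and GRCm38 are named in the submitters' processing notes, while versions, the counting tool and the gene annotation were not given in the sources used here. Libraries were made with a TruSeq kit that does not mark strand and read from a single end, per the labels' protocols. Gene IDs were matched to RefSeq (GRCm38.p6) and GENCODE M21, and 85.2% of 36528 had a symbol.

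Counts were filtered (edgeR's filterByExpr, minimum count 10, minimum total 15), TMM-scaled (0.975 to 1.03), then tested with glmQLFit and glmQLFTest of edgeR 4.0.16 in R 4.3.3, with group as the only term. Standard errors are the absolute log2 difference over the square root of F. The code was run on simulated counts in which few genes changed. Most genes were called in these data, so that run does not bear on the scaling here. Normalized RPKM served only to compare levels between genes. Within groups, pairs of libraries differed by more than counting noise (2.01 to 17.4 chi-square units per degree of freedom).

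Members, lists and tests were chosen with earlier results of these data known. Named genes are the members, Bap1, all tested domain neighbours, up to 4 called genes per list by absolute difference, Snrpb, and 3 genes nearest in pattern to a higher and a lower member. Gnas, Atp10a, Commd1, Setdb1, Yy1, Peg13, Rtl1, Rtl8a, Rtl8b, Snrpf and the markers without reads were named after their values were seen. The result of 1 gene is not reported here. Exon overlap and shared 50-base sequences came from GENCODE M21 with Python 3.11.15. Shares above 10% are given for named genes only, and Peg3os was placed by RefSeq. Alternatives were DESeq2 size factors, library totals and the authors' library factors for scaling, no count filter, a filter at 5 CPM in 3 libraries, the tests of DESeq2 1.42.0 and of limma-voom (limma 3.58.1), and leaving out each library.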

Additional observations from a re-analysis of the deposited data

How the results depend on the processing

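Under 13 alternatives (3 scalings, 2 count filters, 2 other tests and 6 runs without 1 library each), the 20 recomputed results gave 258 comparisons, of which 248 kept their direction and side of the threshold or their count within 1.5 times. None reversed. The counts of imprinted members ran from 2 to 4 higher and from 5 to 6 lower, and the log2 difference of Plagl1 from 3.05 to 3.27 and of H19 from -3.43 to -3.21. With at least 5 CPM required in 3 libraries, Dlk1 and Peg10 were not tested, which left 2 members higher and accounts for the lower end. Mest passed the threshold with the authors' library factors (log2 0.16) and without WT replicate 1 (0.18). Snrpn passed it with library totals (-0.16), with the 5 CPM filter (-0.18) and without WT replicate 2 (-0.15). The cause was not tested. The count of further maternally expressed genes called higher, 2 in the analysis reported, was 4 with the authors' library factors and 5 without a count filter. It ran from 2 to 5 over the runs without 1 library. The median log2 difference over all tested genes was between -0.09 and 0.00 over the scalings. No paired analysis was possible because the labels carry no replicate numbers; numbers here follow the order of the samples. Depth limits Dlk1, Zim1, Tfpi2, Phlda2, Dio3, Slc38a4, Ikzf1 and Begain, which had under 20 reads in each library of 1 label, and Rtl1, which had under 20 under both.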
